A study of Homo sapiens with 4 samples.

Results

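Hepatocytes secrete most of the proteins of blood plasma, and several of the corresponding genes serve as markers of differentiated or fetal liver cells. The set described here comprised 10 such markers, ALB, AFP, TTR, TF, HP, HPX, AHSG, GPC3, ORM1 and FETUB, out of 22148 genes in the GO background of the deposited tables. The 10 genes were picked by name for their roles as liver secretory or liver cancer markers. A gene was called listed when its Ensembl identifier stood under any GO term of the authors' table of differentially expressed mRNAs for a comparison.

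HepG2 and Huh7 are established human cell lines labelled as hepatocellular carcinoma. Group A was HepG2 cells and group C was Huh7 cells, each before treatment. Groups B and D were HepG2 and Huh7 cells, respectively, after sonodynamic therapy with targeted nanobubbles that carried lonidamine (LND), a drug acting on tumor energy metabolism, and the sonosensitizer HMME, with low-frequency ultrasound. After removal of ribosomal RNA, 1 library was sequenced in each of the 4 groups, so no comparison had a replicate check. Group B vs. A asked which mRNAs differed after treatment in HepG2, and group D vs. C asked the same in Huh7. The tables give numbers of genes and identifiers, with neither expression levels nor the direction of a change. The liver identity of the cells could therefore not be checked against marker levels. The tables hold no reads, and library depth was not used here. A gene that was not listed is not shown to be unchanged.

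Albumin is the main carrier protein of adult plasma, and alpha-fetoprotein takes its place before birth and often returns in liver cancer. Other secreted proteins of the liver carry hormones, iron or heme, inhibit proteases, or increase in plasma during inflammation, the acute-phase response. Their genes are switched on in hepatocytes by a small circle of transcription factors, among them the HNF4, FOXA and C/EBP families.

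In HepG2 cells 5 of the 10 markers were listed in group B vs. A, beside 21.6% of all GO background genes. In Huh7 cells 6 of the 10 were listed in group D vs. C, beside 19.7% of the background. ALB, AFP, HPX and FETUB were listed in both comparisons, which made 4 of 10 markers beside 10.3% of the background. GPC3 was listed in group B vs. A and not in group D vs. C, a pattern shared by 11.3% of the background. TTR and ORM1 were listed in group D vs. C and not in group B vs. A, as were 9.43% of the background genes. TF, HP and AHSG were listed in neither comparison. The markers common to both cell lines thus held the albumin pair, the heme carrier and a protease inhibitor, while the iron carrier and the hemoglobin scavenger were absent from both lists. The background includes genes that these cells may not express. Nothing about the markers as a set is read from these shares. Whether any marker differed between the cell lines in its response was not tested.

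**Figure D1:**
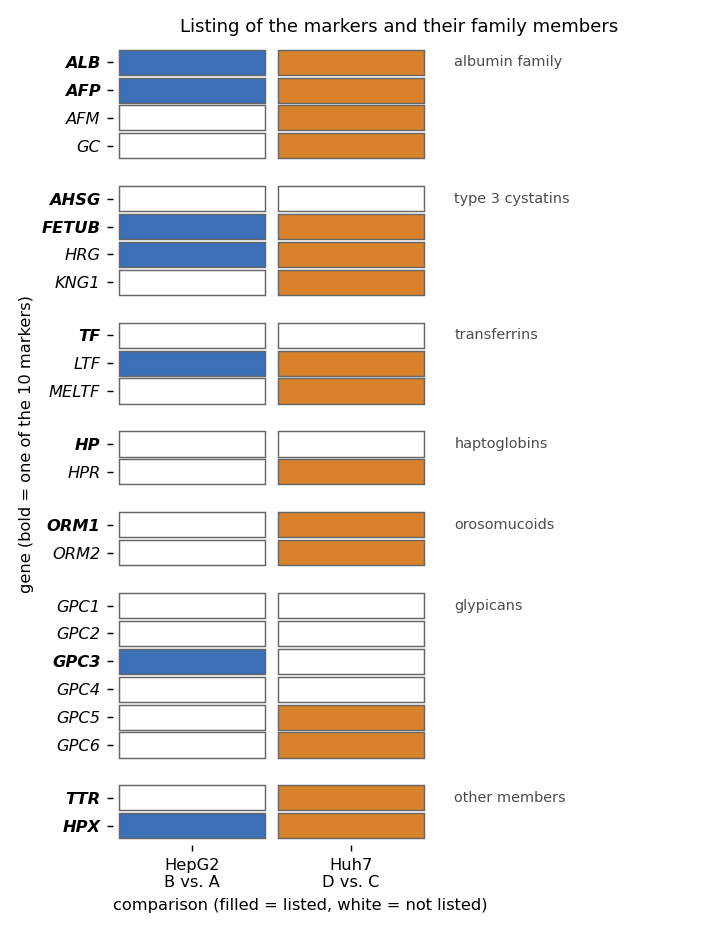
Listing of the 10 markers (bold) and their family members in group B vs. A (HepG2, blue) and group D vs. C (Huh7, orange), with 1 row per gene, filled cells for listed genes and white cells for genes not listed. ALB, AFP, HPX and FETUB are filled in both columns, and among the 13 relatives that are not markers 2 are filled for HepG2 and 10 for Huh7.

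ALB (ENSG00000163631) and AFP (ENSG00000081051) encode the adult and the fetal carrier of the albumin family. Both were listed in both cell lines. They are neighbors on chromosome 4, followed by AFM, which encodes the vitamin E binding protein afamin, with no other protein-coding gene between them in the RefSeq gene order of GRCh38.p14. AFM and GC, which encodes the vitamin D binding protein, were listed in Huh7 and not in HepG2. The family accordingly had 2 of 4 genes listed in group B vs. A and 4 of 4 in group D vs. C.

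Because ALB and AFP are neighbors that were listed together, the 250 bases upstream of their RefSeq transcription starts (GRCh38.p14) are shown. ALB lies on the plus strand with the window chr4:73404037-73404286, and AFP on the plus strand with the window chr4:73435971-73436220. Sequences run 5′ to 3′ in lower case, and capitals mark matches to any of 4 short motifs searched on both strands.
ALB: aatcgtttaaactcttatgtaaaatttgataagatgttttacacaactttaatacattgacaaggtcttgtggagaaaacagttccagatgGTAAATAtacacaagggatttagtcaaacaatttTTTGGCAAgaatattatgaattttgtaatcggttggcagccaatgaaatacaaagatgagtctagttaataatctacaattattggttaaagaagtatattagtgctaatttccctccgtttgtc
AFP: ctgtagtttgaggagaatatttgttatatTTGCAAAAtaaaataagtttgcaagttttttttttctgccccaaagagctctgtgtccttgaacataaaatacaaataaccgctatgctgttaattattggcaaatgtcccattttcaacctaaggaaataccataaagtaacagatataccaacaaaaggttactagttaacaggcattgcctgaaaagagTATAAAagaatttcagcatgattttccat
The motifs were a C/EBP motif (TTGCNNAA), a FOXA motif (TNTTTAC), an HNF4 motif (CAAAGTCCA) and a TATA box (TATAAA), and no matches to different motifs overlapped in the markers. TTGCNNAA matched ALB at positions -125 to -118 on the opposite strand and AFP at -221 to -214, counted from the transcription start. ALB further held TNTTTAC at -159 to -153 on the opposite strand, and AFP held TATAAA at -29 to -24. These matches describe letters in a window and not sites of binding.

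Of the 10 markers, 7 were matched by symbol to the table of upstream sequences, and TTR, HP and GPC3 were not. TTGCNNAA was present for 6 of the 7, ALB, AFP, TF, HPX, AHSG and FETUB, and in 9.05% of the 35116 windows of all genes. TNTTTAC was found for ALB and FETUB and in 9.58% of all windows. TATAAA was found for AFP, ORM1 and FETUB and in 10.7% of all windows. CAAAGTCCA was found for AHSG alone among the 7, at -179 to -171, and in 0.325% of all windows. TF and AHSG, listed in neither cell line, held the C/EBP letters as well, so this match did not separate listed markers from the others. TF and FETUB have more than 1 start in the table, and a match in any of them was counted.

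GO annotation places albumin in lipoprotein traffic and in the binding of toxins. ALB stood under 167 GO terms, the same number in each comparison, because the terms of a gene are fixed by annotation. Under high-density lipoprotein particle remodeling, 6 of 23 background genes were listed in HepG2 and 10 of 23 in Huh7. ABCG1, ALB and CETP were among both, whereas the apolipoprotein genes APOA4 and APOE were listed in HepG2 and APOA1, APOA2 and APOC3 in Huh7. Under toxic substance binding, ALB was listed with 3 other genes of 12 in HepG2 and with 2 others in Huh7.

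AFP stood under 99 GO terms. Under SMAD protein signal transduction, 21 of 59 background genes were listed in HepG2 and 22 in Huh7, and 15 of them were shared. Under progesterone metabolic process, 6 of 16 genes were listed in HepG2 and 7 of 16 in Huh7, including AFP, the peptide hormone gene ADM and the aldo-keto reductase gene AKR1C4 each time. AFP was also the marker that reached a KEGG pathway in both cell lines. The Hippo signaling pathway had 46 of 154 background genes (29.9%) listed in HepG2 and 44 of 154 (28.6%) in Huh7, AFP among them in each.

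HPX (ENSG00000110169) encodes hemopexin, which binds free heme in plasma and delivers it to the liver. It was listed in both cell lines, under 223 GO terms. Its upstream window on the minus strand of chromosome 11, chr11:6440988-6441237, is shown as that of another marker listed in both comparisons, with the C/EBP letters at -203 to -196 in capitals.
HPX: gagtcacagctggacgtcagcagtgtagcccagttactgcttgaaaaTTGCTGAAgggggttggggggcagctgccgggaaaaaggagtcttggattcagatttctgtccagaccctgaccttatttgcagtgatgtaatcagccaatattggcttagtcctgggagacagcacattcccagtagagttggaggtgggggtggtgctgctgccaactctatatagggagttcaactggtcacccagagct
Heme transport had 9 background genes, of which HPX and HRG were listed in HepG2. In Huh7 cells HPX and HRG were joined by ABCB6, a porphyrin transporter, and SLC48A1, which moves heme out of the endosome, giving 4 of 9. HPX was also 1 of 21 listed genes under iron ion homeostasis in HepG2 (24.1% of 87) and 1 of 25 in Huh7 (28.7%), with 13 genes shared. The narrower term cellular iron ion homeostasis had 15 of 64 genes (23.4%) listed in HepG2 and 18 (28.1%) in Huh7, and 10 of these were shared. Under positive regulation of interferon-gamma-mediated signaling, HPX was listed with IRGM, MED1 and PARP9 in HepG2 and with TXK in Huh7, out of 6 background genes.

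FETUB (ENSG00000090512) encodes fetuin-B, a liver-secreted inhibitor of the egg protease ovastacin, and was listed in both cell lines. The windows before its RefSeq starts lie on the plus strand at chr3:186635719-186635968 for the outer start and chr3:186640149-186640398 for the inner start. They are shown for the same reason as that of HPX, and the capitals mark TNTTTAC on the opposite strand (-248 to -242) and TATAAA (-30 to -25) in the outer window and TTGCNNAA (-143 to -136) in the inner window.
FETUB outer start: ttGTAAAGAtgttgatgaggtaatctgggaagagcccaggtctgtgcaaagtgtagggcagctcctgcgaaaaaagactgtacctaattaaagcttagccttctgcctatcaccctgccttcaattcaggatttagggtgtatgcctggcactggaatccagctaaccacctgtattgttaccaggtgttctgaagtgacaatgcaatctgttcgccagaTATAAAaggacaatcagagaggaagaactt
FETUB inner start: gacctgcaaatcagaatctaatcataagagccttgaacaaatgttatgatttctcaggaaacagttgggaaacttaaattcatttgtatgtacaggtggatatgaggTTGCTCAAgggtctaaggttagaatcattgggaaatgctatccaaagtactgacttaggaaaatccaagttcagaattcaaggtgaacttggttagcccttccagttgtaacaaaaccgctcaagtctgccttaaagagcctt
FETUB stood under 53 GO terms. Under metalloendopeptidase inhibitor activity, 9 of 16 background genes were listed in HepG2 and 8 of 16 in Huh7. Of these, 7 were shared, FETUB, LXN, SPOCK2, SPOCK3, TIMP4, WFIKKN1 and WFIKKN2. Binding of sperm to zona pellucida had 10 of 42 genes listed in each cell line, with 5 in common. ASTL, which encodes ovastacin itself, was among the 5 with FETUB. Cysteine-type endopeptidase inhibitor activity had 8 of 61 genes listed in HepG2 and 11 of 61 in Huh7, and FETUB and its relative HRG were in both.

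AHSG (ENSG00000145192) encodes fetuin-A, which keeps calcium phosphate in solution, and was listed in neither comparison. AHSG, FETUB, HRG and KNG1 are the type 3 cystatins and lie next to each other on chromosome 3 with no other protein-coding gene between them. FETUB and HRG, the gene of histidine-rich glycoprotein, were listed in both cell lines. KNG1, which encodes the kininogens, was listed in Huh7 and not in HepG2. The cluster therefore had 2 of 4 genes listed in HepG2 and 3 of 4 in Huh7, and AHSG stood apart at its end.

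TTR (ENSG00000118271) encodes transthyretin, a carrier of thyroid hormone and, through its partner RBP4, of retinol. It was listed in Huh7 and not in HepG2, under 132 GO terms. Of 10 background genes under thyroid hormone transport, CRYM, SLC16A10 and SLCO1C1 were listed in both cell lines. TTR, SERPINA7 and SLCO4A1 were listed in Huh7 in addition, giving 6 of 10 against 3 of 10 in HepG2. SERPINA7 encodes thyroxine-binding globulin. The genes of both dedicated plasma carriers of thyroid hormone were thus on the Huh7 list and off the HepG2 list. Of all GO background genes, 21.6% were listed in HepG2 and 19.7% in Huh7. The transport term holds TTR itself and was picked when these listings were already known, so nothing is read from 6 against 3. Thyroid hormone binding had 4 of 8 genes listed in each cell line, with TTR in Huh7 and ALDH1A3 in HepG2 beside the shared CRYM, CTSH and THRA. Hormone binding as a whole had 23 of 82 genes (28.0%) listed in HepG2 and 21 of 82 (25.6%) in Huh7. Retinol metabolic process had 9 of 42 genes listed in each, of which 3 were shared. RBP4 itself was listed in neither comparison, and STRA6, the receptor through which cells take up retinol from RBP4, was listed in HepG2 and not in Huh7.

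ORM1 (ENSG00000229314) encodes orosomucoid, an acute-phase protein that binds basic drugs. It was listed in Huh7 and not in HepG2, under 134 GO terms. The adjacent copy ORM2 on chromosome 9 had the same pattern. Acute-phase response had 17 of 55 background genes (30.9%) listed in HepG2, with no marker among them, and 20 of 55 (36.4%) in Huh7, with ORM1. The lists shared 10 of these genes. Negative regulation of interleukin-6 production, a further term of ORM1, had 8 of 35 genes listed in HepG2 and 12 of 35 in Huh7, and 6 were shared.

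ORM1 and ORM2 are near-identical, and reads from shared stretches can be assigned to either. Of the 75-base stretches in GENCODE release 29 transcripts of ORM1, 65.3% occur in no other gene, and ORM2 holds the remaining 34.7%. At 150 bases the share found in no other gene was 81.8%. For ORM2 the shares were 58.2% and 77.6%. The joint listing of ORM1 and ORM2 is uncertain for this reason, because the authors' assignment of reads could have split or shared them.

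HP (ENSG00000257017) encodes haptoglobin, which captures free hemoglobin. It was listed in neither comparison, whereas HPR, the haptoglobin-related gene next to it on chromosome 16, was listed in Huh7 and not in HepG2. HP shares 7.16% of its 75-base stretches with HPR, and HPR shares 18.9% of its own with HP. At 150 bases these shares were 1.89% and 5.47%. The status of this pair is also uncertain, though less sequence is shared than between ORM1 and ORM2. TXNL4B overlaps HP on the opposite strand. The libraries were made with a strand-preserving kit, but the strand setting of the counting was not given in the sources used here. TF (ENSG00000091513) encodes transferrin, the iron carrier of plasma, and was listed in neither comparison. It overlaps SRPRB, TFP1 and AC080128.1 on the same strand, and 98.5% of its 75-base stretches occur in no other gene. Of the other transferrins, LTF (lactoferrin) was listed in both cell lines and MELTF (melanotransferrin) in Huh7 and not in HepG2.

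ALB, AFP, TTR, HPX, AHSG, GPC3 and FETUB had no stretch of either length in common with another gene. FETUB and AHSG each overlap AC068631.1 on the opposite strand. GPC3 overlaps AL009174.1 and RPSAP63 on the opposite strand.

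**Figure D2:**
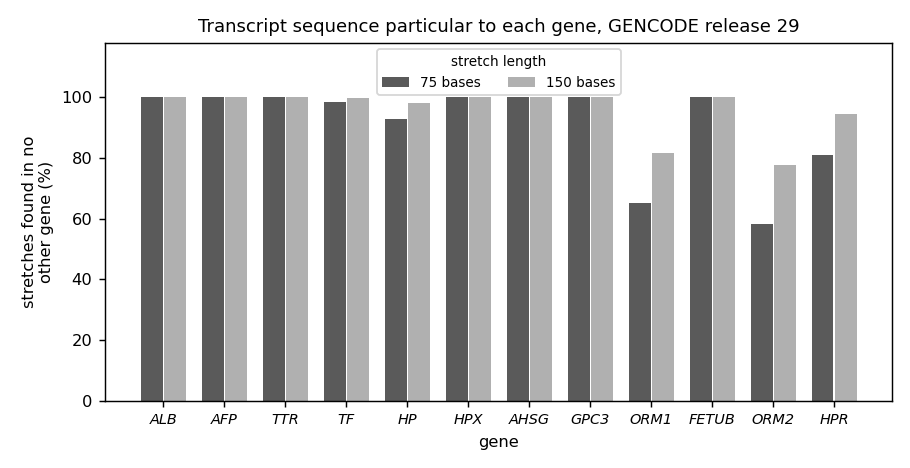
Share of the 75-base (dark) and 150-base (light) stretches in the GENCODE release 29 transcripts of each gene that occur in no other gene (%), for the 10 markers and the copies ORM2 and HPR. Among the markers ORM1 stands lowest at 65.3% and 81.8%, HP follows at 92.8% and 98.1%, and TF has 98.5% and 99.8%.

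GPC3 (ENSG00000147257) encodes glypican 3, a heparan sulfate proteoglycan anchored to the cell surface that is abundant in fetal liver and in liver cancer. It was the marker listed in HepG2 and not in Huh7, and it stood under 335 GO terms, the highest number among the 7 listed markers. Positive regulation of the planar cell polarity branch of Wnt signaling had 4 of 8 background genes listed in HepG2, ANKRD6, GPC3, NKD1 and RSPO3, and NKD1 alone in Huh7. Cell migration involved in gastrulation had 7 of 14 genes listed in HepG2, among them GPC3, WNT5A, WNT11 and NODAL, and 4 of 14 in Huh7, including WNT11 and NODAL. In the KEGG table, GPC3 was 1 of 65 listed genes under Proteoglycans in cancer, 31.9% of the 204 background genes. GPC5 and GPC6 were listed in Huh7 and not in HepG2. No glypican was on both lists, beside 10.3% of all GO background genes, and nothing is read from this in a family of 6. GPC1, GPC2 and GPC4 were on neither list. GPC4 is the direct neighbor of GPC3 on the X chromosome. Heparan sulfate proteoglycan binding had 5 of 15 genes (33.3%) listed in HepG2 and 7 of 15 (46.7%) in Huh7, of which 4, HPSE2, HRG, PTPRC and SEMA5A, were shared.

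The markers share the secretory route, and the GO terms for its compartments were compared between the cell lines. Extracellular space held every listed marker, 5 in HepG2 and 6 in Huh7. Its listed share was 22.5% (481 of 2135 genes) in HepG2 and 24.1% (514 genes) in Huh7, with 270 genes shared. Endoplasmic reticulum lumen held ALB, AFP and GPC3 in HepG2, where 114 of 312 genes (36.5%) were listed. In Huh7 cells it held ALB and AFP, with 103 genes (33.0%) listed and 61 shared. Blood microparticle held ALB and HPX among 40 of 189 genes (21.2%) in HepG2. In Huh7 cells it held ALB, HPX and ORM1 among 53 of 189 (28.0%), and 25 genes were shared. Secretory granule lumen held ALB in HepG2 (79 of 363 genes, 21.8%) and ALB, TTR and ORM1 in Huh7 (83 genes, 22.9%), with 50 shared.

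Platelet alpha granule lumen, a compartment that takes up liver proteins from plasma, held ALB in HepG2 and ALB with ORM1 in Huh7. It had 19 of 70 genes (27.1%) listed in HepG2 and 30 of 70 (42.9%) in Huh7, with 14 shared, the widest gap between the cell lines among the 13 terms in the plot of GO shares. Platelet degranulation held the same markers, with 39 of 135 genes (28.9%) in HepG2, 44 (32.6%) in Huh7 and 22 shared. Cytoplasmic membrane-bounded vesicle lumen held ALB and HPX in HepG2 and ALB, TTR, HPX and ORM1 in Huh7, with 85 (22.3%) and 92 (24.1%) of 382 genes listed and 54 shared. Vesicle lumen had the same 85 and 92 listed genes and 1 more background gene. Post-translational protein modification held ALB, AFP and GPC3 in HepG2 and ALB and AFP in Huh7, and its listed share was 20.7% in both, 80 of 387 genes each with 40 in common. Terms overlap in their genes and no test was run between the shares.

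**Figure D3:**
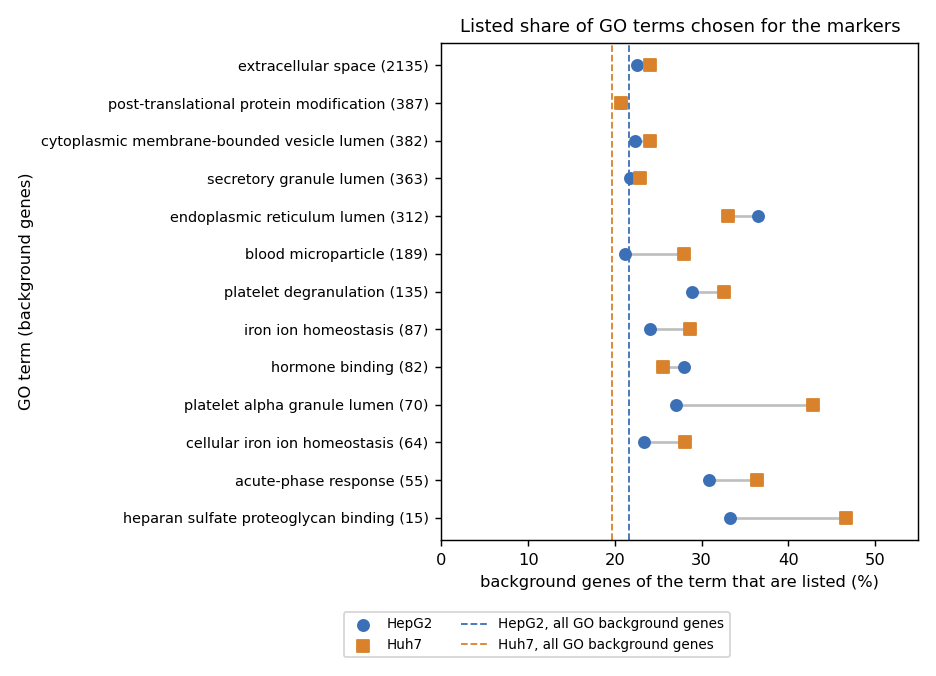
Share of background genes that were listed (%) for 13 GO terms tied to the markers, in HepG2 (blue circles) and Huh7 (orange squares), with the number of background genes in parentheses and dashed lines at the 21.6% and 19.7% of all GO background genes. Endoplasmic reticulum lumen lies at 36.5% and 33.0%, and platelet alpha granule lumen at 27.1% and 42.9%.

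To place the markers among other products of the liver, 30 further genes of hepatocyte plasma proteins were counted. In HepG2 cells 5 of the 30 were listed (16.7%), beside 21.6% of the background. In Huh7 cells 18 of the 30 were listed (60.0%), beside 19.7%. ITIH3, A1BG, CP (ceruloplasmin) and HRG were listed in both. ITIH4 was listed in HepG2 and not in Huh7. The reverse pattern held for 14 genes. Among them were the serpins SERPINA3, SERPINA6 and SERPINA7, the inter-alpha-trypsin inhibitor gene ITIH2, the angiotensin precursor gene AGT, LRG1, SAA4, the hepcidin gene HAMP, FGL1, ORM2, HPR, AFM and GC. The remaining 11 genes were in neither list. Among the markers the counts were 5 and 6 of 10. Under blood microparticle, which holds ALB and HPX, the further plasma protein genes listed numbered 4 in HepG2 and 10 in Huh7. Under extracellular space they numbered 4 and 17.

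The relatives of the markers were counted by family. Leaving the markers out, 2 of 13 relatives were listed in HepG2 (15.4%), HRG and LTF, and 10 of 13 in Huh7 (76.9%). The background shares were 21.6% and 19.7%. Of these relatives, AFM, GC, HPR, HRG and ORM2 are also among the 30 plasma protein genes, and all 5 were listed in Huh7. Of the other 8 relatives, 1 was listed in HepG2 and 5 in Huh7, so these counts and those of the plasma proteins are not separate. With the markers counted in again, each of the 6 families had more listed genes in Huh7. The families are small and were chosen with earlier results of these data known. They include the orosomucoid and haptoglobin pairs, whose status is uncertain. The glypicans had 1 of 6 and 2 of 6, the transferrins 1 of 3 and 2 of 3, the haptoglobins 0 of 2 and 1 of 2, and the orosomucoids 0 of 2 and 2 of 2.

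Fetal liver and liver cancer markers, the company of AFP and GPC3, showed the opposite order. Of 17 such genes, AFP and GPC3 included, 7 were listed in HepG2 (41.2%) and 2 in Huh7 (11.8%). AFP was the gene listed in both. GPC3 was joined in HepG2 by PEG10, EPCAM, SPINK1, GOLM1 and CD24, none of which was listed in Huh7. SALL4, a transcription factor of the fetal liver, was listed in Huh7 and not in HepG2. The other 9 genes were in neither list. Without AFP and GPC3, 5 of 15 genes were listed in HepG2 (33.3%) and 1 of 15 in Huh7 (6.67%). All GO background genes were listed at 21.6% in HepG2 and 19.7% in Huh7. The secretory and the fetal genes around the markers thus differed in which cell line listed more of them, and these differences were not tested. Both lists were chosen with earlier results of these data known, so no conclusion is drawn from their contrast.

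**Figure D4:**
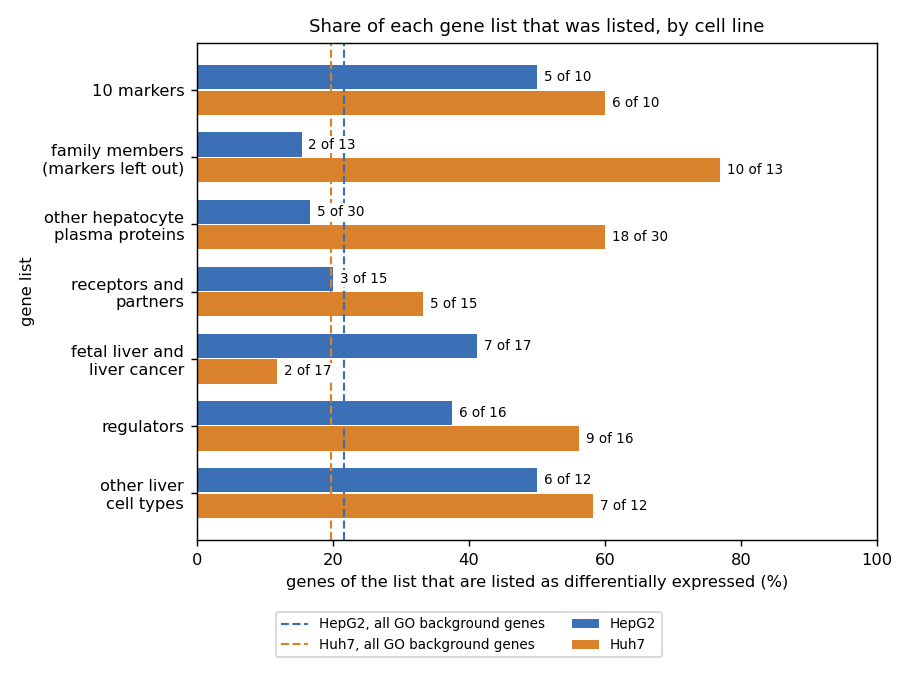
Share of each gene list that was listed (%) in group B vs. A (HepG2, blue) and group D vs. C (Huh7, orange), with the number of listed genes beside each bar and dashed lines at the shares of all GO background genes (21.6% and 19.7%). Other hepatocyte plasma proteins reach 16.7% in HepG2 and 60.0% in Huh7, and fetal liver and liver cancer markers 41.2% and 11.8%.

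Receptors and partners of the markers take the secreted proteins up again or act on their cargo. Of 15 such genes, 3 were listed in HepG2 (20.0%) and 5 in Huh7 (33.3%), beside 21.6% and 19.7% of the background. ASGR1, a subunit of the asialoglycoprotein receptor that clears plasma glycoproteins, and HMOX1, the heme oxygenase gene downstream of hemopexin uptake, were listed in both. STRA6 was listed in HepG2 and not in Huh7. CUBN and LRP2, which encode the endocytic receptors cubilin and megalin, and ASGR2, the other receptor subunit, were listed in Huh7 and not in HepG2. Another 9 genes were in neither list, among them the transferrin receptor genes TFRC and TFR2 and the hemoglobin-haptoglobin receptor gene CD163, so neither HP and TF nor these receptors were listed.

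Of 16 regulators of liver genes, 6 were listed in HepG2 (37.5%) and 9 in Huh7 (56.2%), beside 21.6% and 19.7% of the background. HNF4A, CEBPA, CEBPB and IL6R, the receptor gene for the cytokine that drives the acute-phase response, were listed in both cell lines, as were ALB, AFP, HPX and FETUB. ZHX2, a repressor of AFP in mouse liver, was listed in HepG2 and not in Huh7. FOXA1, FOXA3, ONECUT1, NR5A2 and PROX1 were listed in Huh7 and not in HepG2. The remaining 5 genes were in neither list. Any link between the listing of a regulator and that of a marker was not tested.

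Markers of other liver cell types were counted in the same way. Of 12 such genes, 6 were listed in HepG2 (50.0%) and 7 in Huh7 (58.3%), shares close to those of the 10 markers. The background shares were 21.6% and 19.7%. The endothelial genes PECAM1, VWF and CDH5, the macrophage gene CD68 and the biliary gene KRT7 were listed in both. DCN, a stellate cell gene, was listed in HepG2 and not in Huh7, and ACTA2 and SOX9 were listed in Huh7 and not in HepG2. The other 4 genes, CD163, MARCO, COL1A1 and KRT19, were in neither list. No levels are in the tables, so a summed level or a most abundant gene cannot be given. All libraries came from cultured HepG2 or Huh7 cells, and the listing of a gene does not show the presence of another cell type.

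The markers differed among themselves in their GO annotation. Likeness was measured by the Jaccard index, the number of GO terms that 2 listed genes share divided by the number that either has. Among marker pairs in Huh7, TTR and ORM1 were most alike (0.357, 70 shared terms), ahead of ALB and TTR (0.289). In HepG2 cells ALB and AFP were most alike (0.249, 53 terms). HPX and FETUB were least alike in both (0.0781).

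For each marker, the listed genes with the most similar terms were then taken from the whole list of a comparison. For ORM1 they were ORM2 (0.846, 121 of 143 terms), A1BG (0.507) and SERPINA3 (0.437). For TTR they were LYZ (0.518), TXNDC5 (0.5) and GALNS (0.481). ALB was nearest to LYZ (0.354), QSOX1 (0.35) and PROC (0.349) in HepG2. In Huh7 cells F5 (0.373) came before LYZ and QSOX1. The genes near AFP included LHB (0.5) and VGF (0.456) in HepG2, and FANCF (0.467), VGF and RCN1 (0.449) in Huh7. HPX was nearest to CTF1 (0.352), IL24 (0.341) and PARP9 (0.34) in HepG2, and to PARP14 (0.412), TAB3 (0.352) and CTF1 in Huh7. GPC3 was nearest to SULF1 (0.351), CRB2 (0.347) and DACT1 (0.337). FETUB was nearest to WFDC2 (0.615), A2ML1 (0.611) and SERPINI2 (0.6) in HepG2, and to PZP (0.61), SERPINI2 and PI15 (0.582) in Huh7. These likenesses are of annotation and not of expression.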

How the data were processed

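Ribosomal RNA was removed from total RNA, and 1 library was sequenced in each of 4 groups, taken from the sample labels. The authors' cutoff for a differentially expressed mRNA was an adjusted p-value of 0.05. The submitters' processing notes name Bowtie2 2.2.8, HISAT2, StringTie 1.3.1 and Cuffdiff 2.1.1, while the paper's results name another package for the calls. The genome build is not given in the sources used here. The values used are the counts of genes that the authors deposited in 4 tables (GO terms by GOseq, 14390 and 13760 rows, and KEGG pathways by KOBAS), which are numbers of genes and not of reads. The p-value columns of the authors' enrichment tests were not used. Per-sample columns of other samples numbered 0.

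A gene was listed when its identifier stood under any GO term of a comparison. Symbols were matched for 4755 of 4783 and 4346 of 4369 identifiers. The 10 markers and all gene lists were chosen with earlier results of these data known. Named were all markers and family members, the listed genes of the other lists (some are not reported here), the 3 most alike genes per marker, 11 GO terms, and GO terms with at most 500 background genes and at least 3 listed markers. Role terms and genes under them, unlisted receptors and cell markers, motifs, gene clusters and sequence uniqueness were chosen after the values had been seen.

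Upstream sequences and gene order came from RefSeq (GRCh38.p14), and gene types, overlaps and transcript sequences from GENCODE release 29. Python 3.11.15, pandas 2.3.3, numpy 2.4.6 and matplotlib 3.10.9 were used, and the functions were tested on simulated data. No further test was run, since each group had 1 library and the tables hold no expression values. Alternatives were the KEGG tables, smaller GO terms, lists without paralogs or markers, and a protein-coding background.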

Additional observations from a re-analysis of the deposited data

How the results depend on the processing

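Of 21 alternative counts of genes, 13 were within 1.5 times the main count and 8 moved beyond it. Restricting to GO terms with at most 500 background genes left 5, 6 and 4 markers in HepG2, Huh7 cells and both. Without HP and ORM1 the counts were 5, 5 and 4. With the KEGG tables in place of the GO tables, 2 markers were listed in HepG2, 1 in Huh7 and 1 in both, since only genes with a pathway enter these tables. Over protein-coding genes of GENCODE release 29, the listed shares were 23.9% in HepG2 and 21.9% in Huh7.

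The next alternatives were chosen after seeing the data. By the KEGG tables, other hepatocyte plasma proteins numbered 1 in HepG2 and 3 in Huh7, and fetal liver and liver cancer markers 2 in HepG2 and 1 in Huh7. Without AFP and GPC3, 1 fetal liver and liver cancer marker was listed in Huh7, and without ORM2, HPR, AFM, GC and HRG, 4 and 13 plasma protein genes were listed in HepG2 and Huh7 cells.

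Each group had 1 library. The before and after libraries of each cell line were not analyzed as pairs, because the deposited values are numbers of genes and not expression levels. Depth, levels and directions are not in the tables, so the size of any change cannot be given.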
